A study of Mus musculus with 9 samples.

Results

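The comparison described here set sublingual glands taken 14 days after 10 Gy of radiation against glands taken 7 days after it. Its members are 6 of the 9 RNA-seq libraries of the series, chosen by their labels: 3 labelled 14 days post radiation and 3 labelled 7 days post radiation. The other 3 libraries came from unirradiated glands and serve as a reference level. In the main fit they also entered the filter on low counts, the normalization and the estimate of the spread. All 9 came from mouse glands of genotype WT, with no transgene or drug named, and RNA was extracted from 4 sections of 50 µm per sample. The strain, age and sex of the mice, the number of animals behind the libraries, the radiation field and the time of day of collection are not known from the labels. Because nothing states that the 3 libraries of a group came from separate animals, the p-values below rest only on the spread between libraries of a group, controls included. The study's title concerns regeneration of irradiated glands, but no hydrogel or other treatment is named for these 9 libraries.

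The sublingual gland is a salivary gland built mainly of mucous acini, whose cells are filled with mucin granules, capped by crescents of serous cells called demilunes and drained by ducts. Ionising radiation breaks DNA. Damaged cells stop in the cell cycle, repair or die, and surviving cells can divide again days later, so a gland sampled at successive times after a dose can differ in cell division, in its resident immune cells and in its secretory output. The libraries carried the products of that tissue at high levels. Muc19, the gel-forming mucin of mucous cells, lay between 30293 and 46252 TMM-scaled CPM in the 9 libraries, and A2ml1, a protease inhibitor of the alpha-2-macroglobulin family, lay between 57880.5 and 93589 CPM. CPM are a gene's counts as a share of the library total after TMM normalization (edgeR's scaling between libraries), so they compare 1 gene between libraries and not 1 gene with another. None of the 9 B cell markers reached a level that could be tested. RNA was taken from whole sections, so fewer cells of a type and less RNA per cell cannot be told apart.

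Of 54532 genes in the count tables, 15348 passed the filter on low counts and were tested. With edgeR's quasi-likelihood test and Benjamini-Hochberg adjustment, 1011 genes differed between day 14 and day 7 at an adjusted p below 0.05, which is 6.59% of the genes tested. At day 14, 571 genes were higher (3.72%) and 440 were lower (2.87%). The counts of list members below are to be read against these shares. A list with few calls is given for the genes named and not as a changed list. Changes of at least 2-fold were rarer: 102 genes rose and 110 fell by that much. The median log2 fold change over all genes tested was 0.0014, with an interquartile range of −0.21 to 0.22. The median log2 fold change was 0.48 among the genes that rose and −0.58 among those that fell. In 15.9% of the genes tested all day 14 libraries lay above all day 7 libraries in CPM, and in 13.5% all lay below. Groups that do not overlap are therefore common, also among genes that did not pass.

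**Figure D1:**
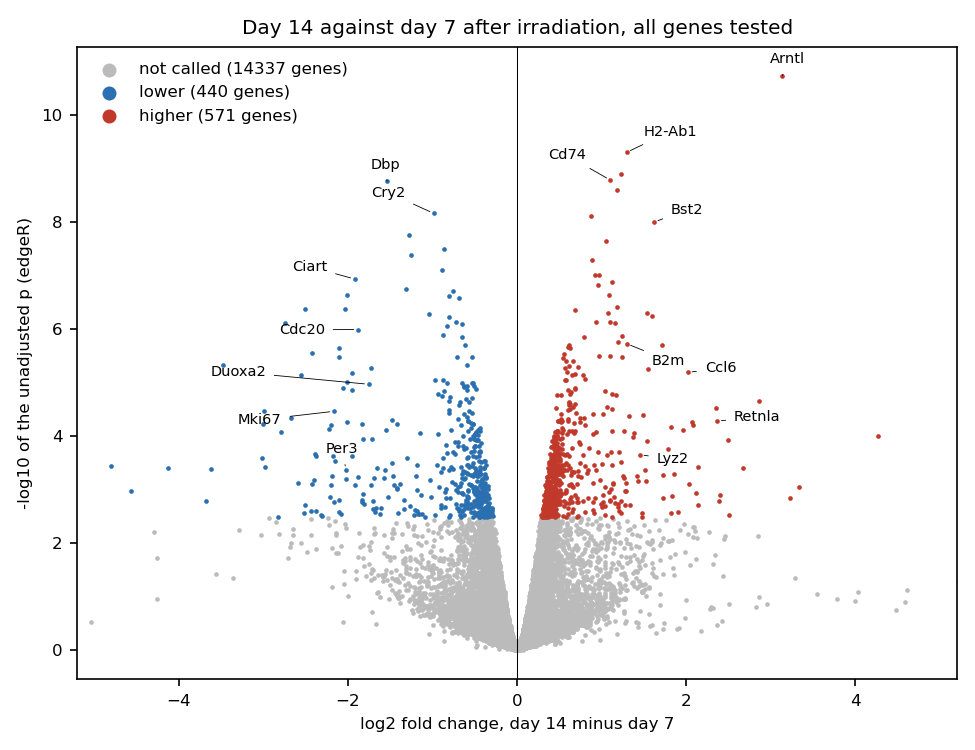
Unadjusted p of edgeR's test as its negative log10 (vertical axis) against the log2 fold change, day 14 minus day 7 (horizontal axis), one point for each of the 15348 genes tested. The 571 genes higher at day 14 are red and the 440 lower are blue, at an adjusted p below 0.05, and Arntl lies farthest to the right of the labelled genes.

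Library totals ran from 15962399 to 19441239 counts, so 3 counts corresponded to between 0.159 and 0.202 CPM. The 20 most abundant genes took 31.0% to 32.0% of counts at day 7, 32.7% to 34.3% at day 14 and 37.1% to 38.6% in controls. Fold changes also varied with transcript length: Spearman's rho between log2 fold change and exonic length was −0.283 (15332 genes, as a description only). The median was 0.188 in the lowest decile of length and −0.137 in the highest. With offsets fitted to length and GC content in each library, rho was 0.018 and 926 genes passed the test, 67.5% of the original calls being kept. Where these offsets end the call of a gene described below, the value stands beside it. They also changed list counts, some given with the lists. Rises of mitochondrial ribosomal proteins went from 2 to 1, and of fatty acid synthesis genes from 1 to 2. Falls went from 1 to 2 in the unfolded protein response and senescence lists. A first fall appeared in the mitochondrially encoded respiratory and immediate early lists, and a first rise in the mucin-type glycosylation and basal lists. The labels do not name the strand setting used for counting. Of the genes described below, Arntl, Bhlhe41, Ccna2, Ccnd1, Cd52, Cdc20, Cdkn1a, Ckap2l, Cnp, Cry2, Cyp51, Dbp, Dnaja1, Duoxa2, Ei24, Fdft1, Galnt7, Hspe1, Idi1, Ifi30, Irf7, Itgb4, Itpr3, Jund, Krt5, Lama3, Lss, Manf, Mcm7, Msh6, Ndufa2, Nid2, Notch3, Pck2, Prc1, Psmb8, Rad54l, Shmt2, Tef, Tnc, Usp2 and Xrcc6 share exonic bases with a gene of opposite orientation, and unstranded counts cannot tell such a pair apart.

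**Figure D2:**
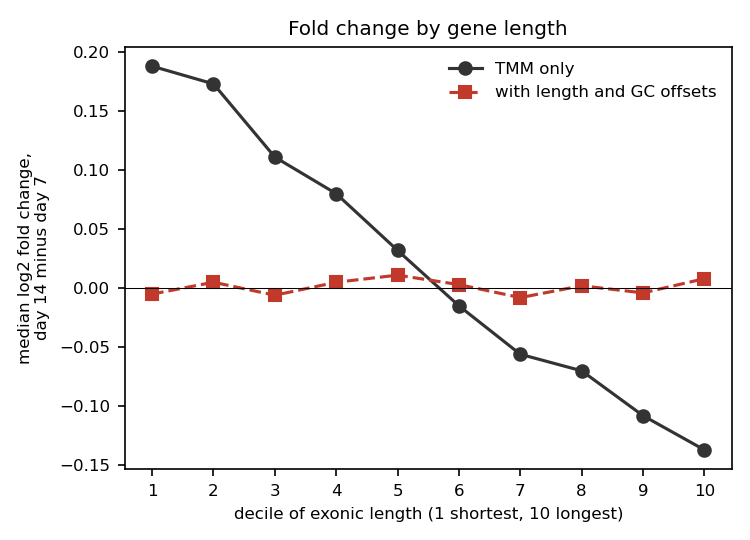
Median log2 fold change (day 14 minus day 7, vertical axis) in each decile of exonic length of the tested genes (horizontal axis), with TMM normalization alone (circles) and with length and GC offsets (squares). The medians run from 0.188 in the shortest decile to −0.137 in the longest, and lie near 0 with the offsets.

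Genes of mitosis fell together: 24 of the 30 tested members of a mitosis and cytokinesis list were lower at day 14 (2.87% of all genes tested were), none was higher, and the list median was −2.01. Mitosis separates the copied chromosomes and cytokinesis then divides the cell, and their genes are transcribed mainly in the G2 and M phases, so their level is commonly read as a measure of dividing cells. Mki67, the proliferation antigen that coats mitotic chromosomes, gave 27.2, 39.8 and 29.2 CPM at day 7 and 9.41, 3.61 and 8.45 CPM at day 14. Its controls gave 1.83, 3.1 and 3.45 CPM, so all 3 day 14 libraries lay below every day 7 library and above every control. The gene (chromosome 7, 135689784 to 135716361 on the minus strand of GRCm38) fell with log2 fold change −2.17, SE 0.318, edgeR adjusted p = 0.00388. Cdc20, the activator of the anaphase-promoting complex, gave 8.96, 15.4 and 10.1 CPM at day 7 and 3.8, 2.18 and 3.36 CPM at day 14, and the groups did not overlap (log2 fold change −1.88, SE 0.268, edgeR adjusted p = 3.65e-04). Prc1, which bundles microtubules of the central spindle, gave 10.3, 13.2 and 9.67 CPM at day 7 and 2.86, 2.18 and 3.2 CPM at day 14 and fell likewise (log2 fold change −2.01, SE 0.259, edgeR adjusted p = 1.51e-04). Racgap1, part of the centralspindlin complex that positions the cleavage furrow, fell by 1.95 on the log2 scale, and Ccna2, the cyclin A of S phase and G2, fell by 2.10. Ect2, the exchange factor that activates RhoA at the furrow, fell by 2.42, and Ttk, a spindle checkpoint kinase, fell by 3.01. The calls of these 7 genes held whichever library was left out and with the length and GC offsets.

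Sequences upstream of these genes are shown because mitotic genes are known to share 2 promoter elements, the cell cycle genes homology region or CHR (TTTGAA), bound by the MuvB-based cell cycle complexes, and the CCAAT box, bound by NF-Y. Each line is 60 bases from the 250 bases before a RefSeq start on GRCm38.p6, read 5′ to 3′ on the gene's strand, with both motifs in capitals on either strand, so a match to the reverse complement is also in capitals.
Mki67 (chr7:135716445-135716504, minus strand): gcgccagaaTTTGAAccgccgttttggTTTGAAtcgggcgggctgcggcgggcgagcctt
Cdc20 (chr4:118437344-118437403, minus strand): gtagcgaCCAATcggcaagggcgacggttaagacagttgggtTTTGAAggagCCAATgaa
Prc1 (chr7:80294416-80294475, plus strand): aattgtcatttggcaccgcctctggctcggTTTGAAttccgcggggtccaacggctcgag
Ect2 (chr3:27153960-27154019, minus strand): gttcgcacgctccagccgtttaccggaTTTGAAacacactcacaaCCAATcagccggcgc
Kif11 (chr19:37376322-37376381, plus strand): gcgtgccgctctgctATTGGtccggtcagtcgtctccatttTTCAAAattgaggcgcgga
Promoters were found for 25 of the 30 list members. The CHR letters stood in 10 of these 25 genes (40.0%), against 13.1% of the 11204 tested genes with a promoter. CCAAT stood in 19 of 25 (76.0%), against 39.9%, and both stood in 9 of 25 (36.0%), against 4.9%. In the lines shown the marked motifs share no bases with each other, and a match describes letters and not a bound site. Kif11, the kinesin that pushes spindle poles apart, gave 4.45, 7.75 and 4.84 CPM at day 7 and 2.22, 0.637 and 0.867 CPM at day 14 and fell (log2 fold change −2.20, SE 0.429, edgeR adjusted p = 0.00542), with an edgeR adjusted p of 0.0512 without day 7 library 2.

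The mitotic genes did not all pass. Top2a, the topoisomerase that untangles sister chromatids, gave 15.4, 31.1 and 21.9 CPM at day 7 and 5.14, 1.65 and 5.91 CPM at day 14, with groups that did not overlap but an edgeR adjusted p of 0.0524. Top2a did pass as lower with DESeq2, with limma-voom, with a filter of at least 1 CPM in 3 libraries and without control library 2. With DESeq2, and likewise with limma-voom, 28 of the 30 list members were lower. Aurka, the centrosomal kinase, gave 6.95, 9.83 and 8.92 CPM at day 7 and 5.84, 7.97 and 7.26 CPM at day 14, with overlapping groups and an edgeR adjusted p of 0.434. Foxm1, the transcription factor of the G2 programme, Cdca3 and Ckap2l, a spindle protein, gave log2 fold changes of −1.73, −1.95 and −1.73, among the 12 largest falls of called genes with a mean of at least 5 CPM in the irradiated libraries, an established symbol and groups that did not overlap. The call of Foxm1 was lost without day 7 library 2, day 14 library 2 or day 14 library 3 (highest edgeR adjusted p with 1 library left out 0.118, a value given likewise for other genes below). Without day 7 library 2, whose mitotic genes were highest, 14 of the 30 list members passed in place of 24. Relative to the control mean, the list median was 1.93, 2.52 and 2.04 on the log2 scale in the day 7 libraries and 0.87, 0.18 and 0.52 in the day 14 libraries, so no day 14 library reached the level of any day 7 library.

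**Figure D3:**
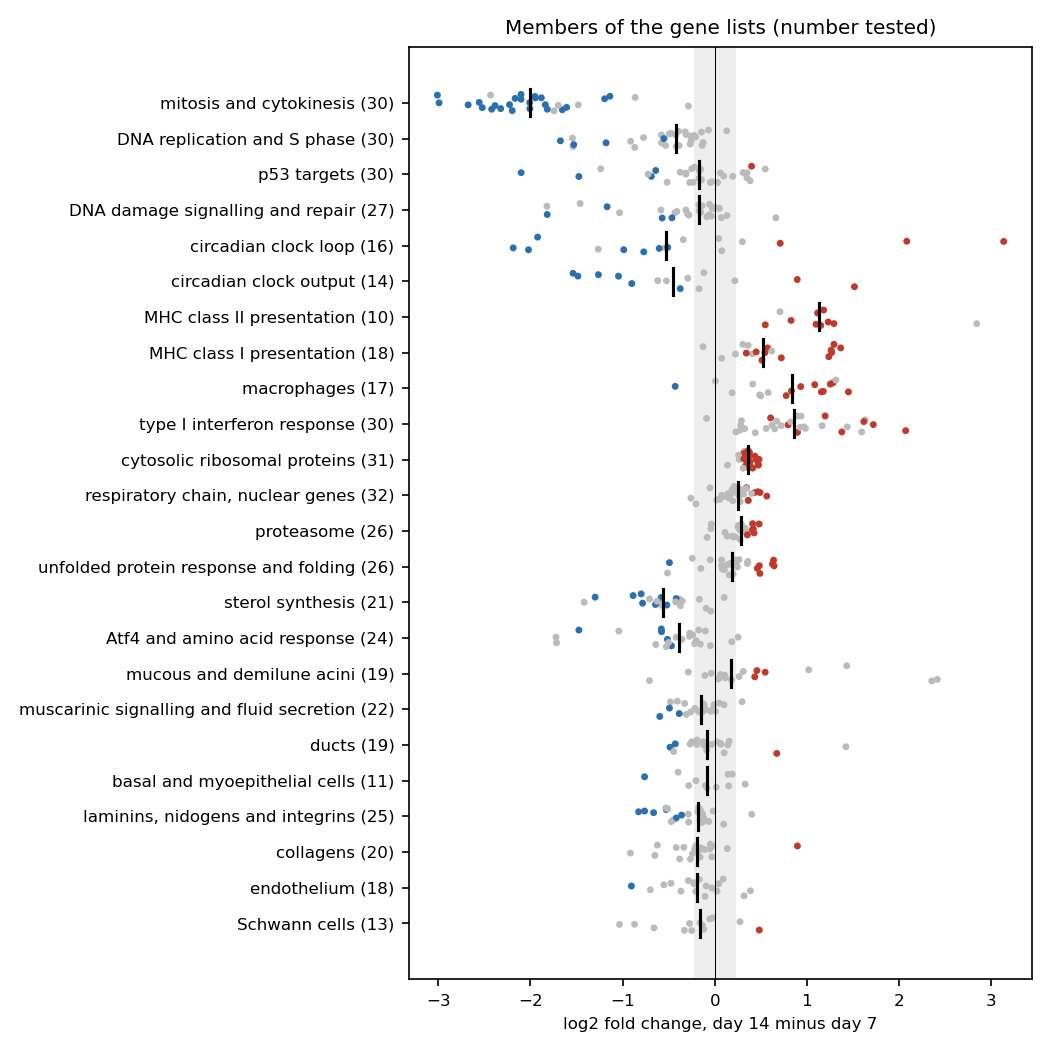
Log2 fold change, day 14 minus day 7 (horizontal axis), of each tested member (point) of 24 gene lists (rows), red where higher and blue where lower at an edgeR adjusted p below 0.05, grey otherwise. The black bar is the list median and the shaded band the interquartile range of all genes tested; the mitosis points lie to the left, with 24 of 30 blue, and the ribosomal points just to the right, with 24 of 31 red.

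Of 30 genes of DNA replication and S phase, 4 fell, against 2.87% of all genes tested, and none rose. The list median was −0.42. Rrm2, the cell-cycle-regulated subunit of ribonucleotide reductase, gave 4.94, 10.7 and 8.17 CPM at day 7 and 4.73, 2.55 and 3.25 CPM at day 14 and fell by 1.18, and its partner Rrm1 fell by 0.55, but not with the offsets (edgeR adjusted p = 0.0812). Uhrf1, which carries DNA methylation to the new strand, fell by 1.53, and Ccne1, the cyclin of S phase entry, fell by 1.68. Mcm7, a subunit of the replicative helicase, had a log2 fold change of 0.13 (edgeR adjusted p = 0.709). Each of the 4 lost its call on the omission of day 7 library 2 or day 14 library 3 and of 2 or 3 other libraries, with a highest edgeR adjusted p of 0.17 for Rrm2, 0.103 for Rrm1, 0.116 for Uhrf1 and 0.25 for Ccne1. In place of 4, the number that fell was 2 without day 14 library 1 or 2, 1 without day 14 library 3 or day 7 library 3, and 0 without day 7 library 2.

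Of 30 targets of p53, the factor that damage activates, 4 fell and 1 rose, against 2.87% and 3.72% of all genes tested, and the median was −0.17. Cdkn1a, the p21 inhibitor of cyclin-dependent kinases, gave 13.1, 13.6 and 15.1 CPM at day 7 and 16.4, 12.7 and 18.8 CPM at day 14, both above the controls at 5.3, 6.0 and 5.71 CPM, and did not pass (log2 fold change 0.20, SE 0.165, edgeR adjusted p = 0.534). Mdm2, the ubiquitin ligase that limits p53, gave 46.9, 41.3 and 47.1 CPM at day 7 and 34.6, 34.1 and 40.1 CPM at day 14, its highest day 14 value below the lowest of day 7, and did not pass either (edgeR adjusted p = 0.101). Ephx1, the microsomal epoxide hydrolase, gave 169.7, 171 and 173 CPM at day 7 and 117, 96.6 and 105 CPM at day 14 and fell (log2 fold change −0.69, SE 0.0892, edgeR adjusted p = 1.53e-04). Ccnd1, cyclin D1 of the G1 phase, gave 74, 59.7 and 57.9 CPM at day 7 and 45.6, 41.6 and 35.8 CPM at day 14 and fell (log2 fold change −0.64, SE 0.131, edgeR adjusted p = 0.00718). Sesn2, a stress-induced regulator of mTORC1, fell by 1.47, and Psrc1, a spindle protein, fell by 2.10, while Ei24 rose by 0.40. Sesn2 lost its call without day 7 library 1 or day 14 library 2, and Psrc1 when any 1 of the 6 irradiated libraries was left out (highest edgeR adjusted p 0.082 and 0.114). Ei24 lost it without day 7 library 1, day 14 library 1 or day 14 library 3 (highest 0.0657). Without day 7 library 1 or day 14 library 2, 2 of the 30 fell. With the length and GC offsets 6 fell and the list median was −0.22, and 6 also fell with DESeq2 and with limma-voom.

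Of 27 genes of damage signalling and repair, 4 fell and none rose, against 2.87% and 3.72% of all genes tested, and the median was −0.17. Rad54l, a motor protein of homologous recombination, fell by 1.82. Msh6, of mismatch recognition, and Xrcc6, the Ku70 end-binding protein, fell by 0.57 and 0.46. With 1 library left out, the highest edgeR adjusted p was 0.178 for Rad54l, 0.123 for Msh6 and 0.173 for Xrcc6. No repair gene passed without day 14 library 1, day 14 library 2, day 7 library 2 or day 7 library 3, and 2 passed without day 7 library 1.

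Circadian clock genes changed in both directions. The clock is a feedback loop in which Arntl (Bmal1) with Clock or Npas2 activates the Per and Cry genes, whose proteins then repress that activity over a day. Arntl gave 0.815, 1.21 and 1.13 CPM at day 7 and 8.3, 10.4 and 9.16 CPM at day 14, and the controls 12.1, 13.2 and 11.8 CPM. All 3 day 14 libraries lay above every day 7 library, and the gene (chromosome 7, 113207465 to 113314126 on the plus strand of GRCm38) rose 8.79-fold (log2 fold change 3.14, SE 0.227, edgeR adjusted p = 2.86e-07). Npas2, its alternative partner, gave 1.63, 0.824 and 2.79 CPM at day 7 and 4.44, 7.33 and 10.6 CPM at day 14 and rose (log2 fold change 2.08, SE 0.379, edgeR adjusted p = 0.00542), with its call held whichever library was left out. Clock rose by 0.71, but not without day 7 library 2 or 3 or any 1 day 14 library (highest edgeR adjusted p 0.102). On the opposite arm, Ciart, a repressor of the Arntl complex, gave 18.7, 16.3 and 12.3 CPM at day 7 and 5.03, 4.09 and 3.36 CPM at day 14 and fell (log2 fold change −1.92, SE 0.236, edgeR adjusted p = 9.92e-05). Cry2, a cryptochrome repressor, gave 70.8, 69.9 and 71.8 CPM at day 7 and 36.9, 36.3 and 34.1 CPM at day 14 and fell (log2 fold change −0.99, SE 0.101, edgeR adjusted p = 1.46e-05). Per3 and Per2, the period repressors, fell by 2.02 and 2.19. Per2 lost its call without day 7 library 2, day 14 library 2 or day 14 library 3, and Per3 without any of these or day 14 library 1 (highest edgeR adjusted p 0.0875 and 0.0646). In all, 3 of 16 loop genes rose and 7 fell, against 3.72% and 2.87% of all genes tested.

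Of 14 clock output genes tested, which the loop drives, 6 fell and 2 rose, against 2.87% and 3.72% of all genes tested. The median was −0.45, and −0.295 without day 7 library 3. Dbp, a PAR bZIP transcription factor and a direct target of the loop, gave 232, 266 and 183 CPM at day 7 and 92.1, 75 and 67.2 CPM at day 14 against 75.3, 75.3 and 71.2 CPM in controls, and fell (log2 fold change −1.54, SE 0.131, edgeR adjusted p = 5.29e-06). Tef, its relative, gave 342, 332 and 266 CPM at day 7 and 176, 134 and 146 CPM at day 14 and fell (log2 fold change −1.04, SE 0.13, edgeR adjusted p = 2.39e-04). Usp2, a rhythmic deubiquitinase, fell by 1.48. Hlf, the remaining PAR bZIP factor, fell by 0.90, but not without day 7 library 1 or 2 or day 14 library 2 (highest edgeR adjusted p 0.112). Wee1, the kinase that holds back mitosis, gave 31.2, 31 and 24.1 CPM at day 7 and 11.8, 12.4 and 11.8 CPM at day 14 and fell by 1.26, but not without control library 2 or any 1 irradiated library, nor with the offsets (edgeR adjusted p = 0.0681). Nfil3, the repressor that opposes Dbp at the same sites, gave 8.69, 4.62 and 5.59 CPM at day 7 and 19.6, 20.1 and 14.4 CPM at day 14 and rose by 1.52, though not when day 7 library 2 or 3 or day 14 library 1 or 2 was left out (highest edgeR adjusted p 0.0949). The second rise was Leo1, a subunit of the PAF1 elongation complex, at 0.90, with a call lost without day 7 library 1 or 2 or day 14 library 1 or 2 (highest edgeR adjusted p 0.12). The number of falls in the output list was 3 without day 7 library 1, day 7 library 2 or day 14 library 2, and the 7 falls of the loop came to 3 or 4 without day 7 library 2 or any 1 day 14 library. No source used here gives the hour at which each gland was collected, so time of day and time after the dose cannot be told apart for these genes. The same limit holds for every other gene of this comparison.

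The E-box CACGTG, to which Arntl and Clock bind, is shown for 4 genes of this group to show where its letters stand. Each line is again 60 bases upstream of a RefSeq start on GRCm38.p6, 5′ to 3′ on the gene's strand, with the E-box, which reads alike on both strands, in capitals.
Ciart (chr3:95882240-95882299, minus strand): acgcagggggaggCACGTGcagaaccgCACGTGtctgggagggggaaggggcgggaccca
Bhlhe41 (chr6:145865541-145865600, minus strand): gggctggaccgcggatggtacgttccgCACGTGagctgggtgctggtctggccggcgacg
Tef (chr15:81802519-81802578, plus strand): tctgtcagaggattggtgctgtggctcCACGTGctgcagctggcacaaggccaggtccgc
Cry1 (chr10:85185082-85185141, minus strand): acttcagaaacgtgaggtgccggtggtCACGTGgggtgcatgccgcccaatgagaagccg
The E-box stood within 250 bases upstream in 4 of 12 loop genes with a promoter (33.3%) and 2 of 13 output genes (15.4%), against 9.56% of tested genes. Bhlhe41, a repressor of the loop, fell by 0.60. Cry1, the partner of Cry2, gave 13.4, 10.9 and 9.89 CPM at day 7 and 8.3, 7.97 and 7.32 CPM at day 14 and did not pass (edgeR adjusted p = 0.0822). Its day 14 libraries lay below its day 7 libraries, as did those of 13.5% of all genes tested.

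MHC class II molecules present peptides to CD4 T cells and are carried mainly by macrophages, dendritic cells and B cells. Of 10 tested class II genes 8 rose and none fell, with a median of 1.14. H2-Ab1, a class II beta chain, gave 32.5, 25.5 and 35.6 CPM at day 7 and 79.7, 76.7 and 73.2 CPM at day 14 against 90.1, 96.9 and 90.2 CPM in controls. Its 3 day 14 libraries lay between the day 7 libraries and the controls, with no overlap. The gene (chromosome 17, 34257689 to 34269419 on the plus strand of GRCm38) rose 2.45-fold (log2 fold change 1.29, SE 0.113, edgeR adjusted p = 3.85e-06). Cd74, the invariant chain that guides class II through the cell, gave 108, 87.6 and 108 CPM at day 7 and 228, 236 and 189 CPM at day 14 and rose (log2 fold change 1.10, SE 0.103, edgeR adjusted p = 5.29e-06). H2-Aa and H2-Eb1, the other classical chains, rose by 1.18 and 1.23. Ifi30, a lysosomal thiol reductase that prepares antigens, rose by 0.55, but not without day 7 library 2 or day 14 library 1 or 2 (highest edgeR adjusted p 0.107), nor with the length offsets (edgeR adjusted p = 0.106). Ctss, the protease cathepsin S that trims the invariant chain, gave 31.6, 15.9 and 27.1 CPM at day 7 and 57.1, 65.1 and 43.8 CPM at day 14 and rose by 1.15, but not without control library 3, day 7 library 3 or day 14 library 1 or 2, nor with the offsets (edgeR adjusted p = 0.108). Without day 14 library 1, 5 of the 10 rose. Markers of macrophages rose at the same time, as given below, and their part in the class II values was not tested.

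**Figure D4:**
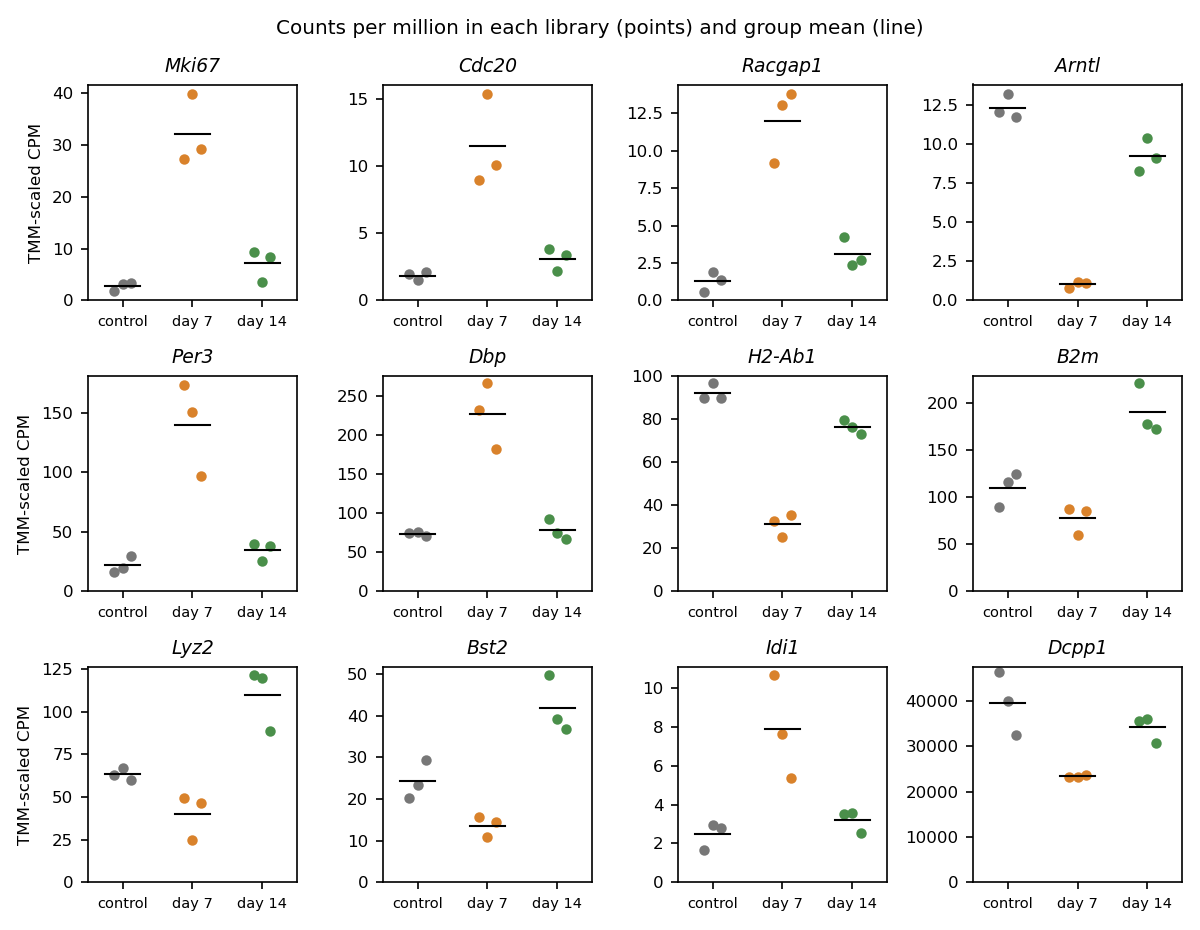
TMM-scaled CPM (vertical axes, linear from 0) of 12 genes in each of the 9 libraries (points), in the groups control, day 7 and day 14, with each group's mean as a line. H2-Ab1 and Arntl are lower in all 3 day 7 libraries than in all 3 day 14 libraries, and Mki67 is higher.

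MHC class I genes, which display cytosolic peptides to CD8 T cells, also rose: 11 of 18, none falling, with a median of 0.53. B2m, the light chain of class I, gave 87.1, 59.7 and 85.4 CPM at day 7 and 221, 177 and 172 CPM at day 14 and rose (log2 fold change 1.30, SE 0.159, edgeR adjusted p = 5.89e-04). Psmb8, an immunoproteasome subunit, gave 5.65, 5.38 and 5.8 CPM at day 7 and 14.4, 10.6 and 14.8 CPM at day 14 and rose (log2 fold change 1.24, SE 0.18, edgeR adjusted p = 4.63e-04). The heavy chains H2-K1 and H2-D1 rose by 0.58 and 0.54, and H2-Q7, a non-classical chain, by 1.37. Class I heavy chains are near-identical in sequence, so their reads may be shared among copies. Without day 7 library 1 or day 14 library 1 the number that rose was 7.

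Macrophage markers rose at day 14, 9 of 17 against 1 lower, with a median of 0.83. C1qa, C1qb and C1qc encode the chains of the complement starter C1q, made largely by tissue macrophages. C1qa gave 29, 18.6 and 24.6 CPM at day 7 and 53.3, 55.7 and 44.3 CPM at day 14, against 38.1, 34.9 and 34 CPM in controls, and the lowest day 14 value lay above all day 7 and control values (log2 fold change 1.09, SE 0.139, edgeR adjusted p = 1.51e-04). C1qb and C1qc rose by 1.16 and 1.18. Lyz2, the lysozyme of myeloid cells, rose by 1.45, but not without day 14 library 2 (highest edgeR adjusted p 0.0593). Apoe, the lipid carrier, rose by 0.78, and Cd68, a lysosomal glycoprotein of macrophages, by 0.93, the latter with an edgeR adjusted p of 0.0512 without day 7 library 2. Fcrls, a scavenger receptor-like protein, and Ccl6 and Ccl9, myeloid chemokines, rose by 1.59, 2.02 and 1.53. Mertk, the receptor for clearing dying cells, fell by 0.43, but not without day 7 library 1, 2 or 3 or day 14 library 2 or 3 (highest edgeR adjusted p 0.092). Without day 7 library 2, 5 macrophage markers rose in place of 9. Of 8 markers of alternatively activated macrophages 1 rose, with a list median of 0.34, while 3.72% of all genes tested rose, so the call describes a single gene. This was Retnla, a secreted resistin-like protein, which gave 3.58, 0.989 and 2.47 CPM at day 7 and 8.41, 17.5 and 10.5 CPM at day 14 (log2 fold change 2.37, SE 0.378, edgeR adjusted p = 0.00507).

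The other leukocyte lists gave 1 call or none, while 3.72% of all genes tested rose. Of 9 T and NK cell genes 1 rose, Cd2, an adhesion receptor of T cells, and its call was lost when any 1 irradiated library was left out (highest edgeR adjusted p 0.168) or with the offsets (0.0569). Of 7 dendritic cell genes 1 rose, Irf8, the factor of dendritic and monocyte lineages, at 0.53. Its call was lost without day 7 library 1 or 3 or day 14 library 3 (highest edgeR adjusted p 0.0689). Cd52, a surface peptide of lymphocytes and macrophages, rose by 1.55. Genes of the T and NK list had a median of 1.22, with low CPM. The 13 plasma cell genes gave no call and a median of 0.97, which was 0.622 without day 14 library 2 and 1.491 without day 14 library 3. Igkc, the kappa light chain, gave 124, 7.42 and 32.2 CPM at day 7 and 406, 376 and 17.1 CPM at day 14: day 14 library 3 lay below day 7 libraries 1 and 3, so the groups overlapped.

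Of 30 interferon-stimulated genes tested, 8 rose and none fell. The median was 0.86, and 0.552 without day 14 library 1. Bst2 (tetherin), which holds budding virus at the membrane, gave 15.6, 10.8 and 14.5 CPM at day 7 and 49.9, 39.2 and 36.9 CPM at day 14, against 20.4, 23.4 and 29.3 CPM in controls, and rose (log2 fold change 1.62, SE 0.166, edgeR adjusted p = 1.72e-05). Oas1a, an RNA sensor enzyme, gave 1.36, 1.65 and 1.5 CPM at day 7 and 9.7, 2.5 and 6.88 CPM at day 14 and rose (log2 fold change 2.07, SE 0.395, edgeR adjusted p = 0.00516). Isg15, a ubiquitin-like modifier, gave 2.12, 1.48 and 3.6 CPM at day 7 and 12, 4.3 and 7.53 CPM at day 14 and rose by 1.72, but not without day 7 library 1 or 2 or day 14 library 1 or 3 (highest edgeR adjusted p 0.0914). Zbp1, a sensor of Z-form nucleic acids, rose by 1.38, but not without day 14 library 1 (highest 0.0582). Irf7, the inducible interferon factor, gave 14.9, 7.86 and 18 CPM at day 7 and 57.7, 25.3 and 43.7 CPM at day 14 and did not pass (edgeR adjusted p = 0.0537). Irf7 did pass as higher under 6 alternatives, among them DESeq2, limma-voom and the omission of day 14 library 2. Relative to the control mean the list median was 1.39, 0.27 and 0.90 in the day 14 libraries, lowest in library 2. The count depended on the libraries: 16 rose without day 14 library 2, 3 without day 14 library 1, and 4 without day 7 library 1, day 7 library 2 or day 14 library 3.

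**Figure D5:**
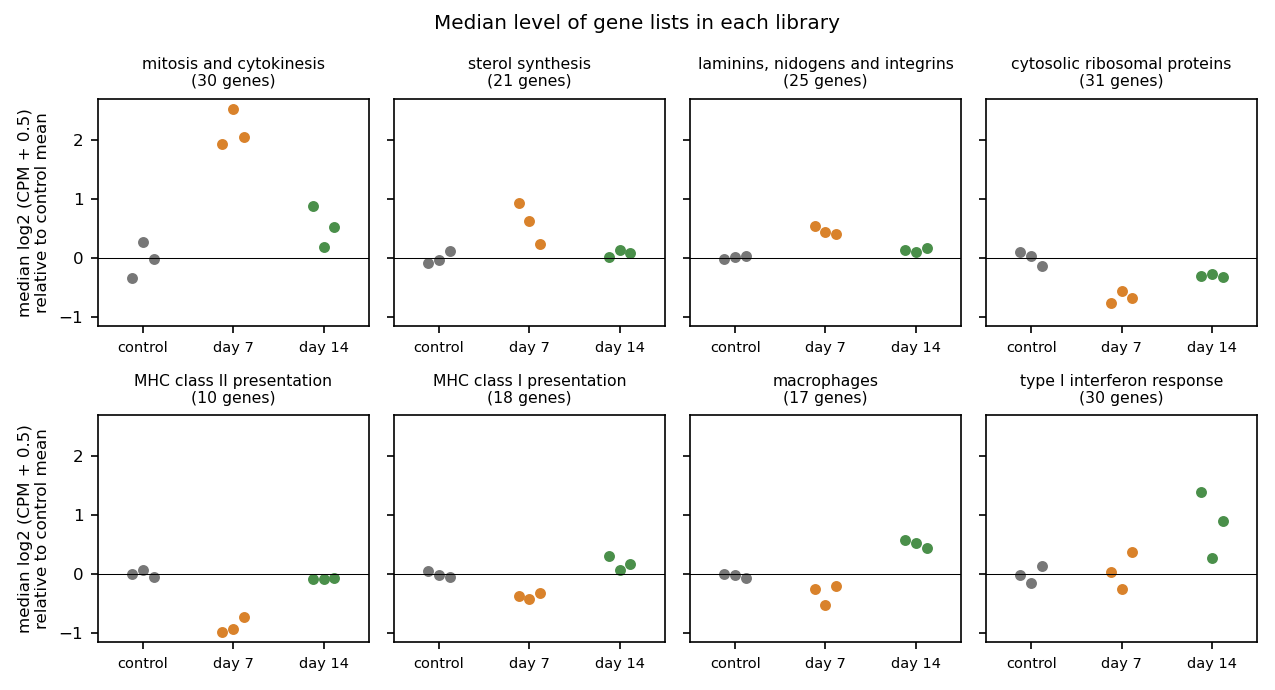
Median over list members of log2 (CPM + 0.5) relative to the control mean (vertical axis) for 8 gene lists, one point per library, in the control, day 7 and day 14 groups. MHC class II lies at −0.98 to −0.73 in the day 7 libraries and at −0.09 to −0.06 in the day 14 libraries, while mitosis lies at 1.93 to 2.52 and 0.18 to 0.87.

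Of 31 cytosolic ribosomal proteins 24 rose and none fell, with a median of 0.36. Rpl8, a large-subunit protein, gave 388, 429 and 390.4 CPM at day 7 and 549.6, 538 and 518 CPM at day 14 against 693, 662 and 619 CPM in controls, and rose 1.33-fold (log2 fold change 0.41, SE 0.0861, edgeR adjusted p = 0.00807), but not with the length and GC offsets (edgeR adjusted p = 0.109). Rps14 and Rpl27, of the small and large subunits, rose by 0.47 and 0.48 and kept their calls with the offsets. Ribosomal protein transcripts are short, and with the offsets 11 of the 31 passed and the list median was 0.231. The number was 12 without control library 2, 4 without day 7 library 1 or day 14 library 2, 11 without day 7 library 2, 10 without day 14 library 3, and 9 without day 7 library 3 or day 14 library 1. Every day 14 library lay above every day 7 library in the list median, and all 6 lay below the 3 controls.

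Of 24 mitochondrial ribosomal proteins 2 rose, Mrpl54 and Mrps28 (median 0.32), of 32 nuclear respiratory chain genes 6 rose (median 0.26) and of 26 proteasome subunits 6 rose (median 0.28), none falling in the 3 lists. Over all genes tested 3.72% rose, and in the shortest and next shortest deciles of exonic length 7.36% and 8.8% rose. The calls of Mrpl54 and Mrps28 therefore describe single genes and not their list. With the length and GC offsets the median of the mitochondrial ribosomal proteins was 0.2 and that of the nuclear respiratory genes 0.107. The 13 respiratory genes encoded in mitochondria gave no call and a median of 0.04, or −0.127 with the offsets. Among them mt-Nd5 had a log2 fold change of −0.32 and did not pass. It passed as lower with the offsets (log2 fold change −0.48, edgeR adjusted p = 0.00386). It also passed with DESeq2, with limma-voom, with the 6 irradiated libraries alone, with no filter on low counts and without control library 3. Mrpl54 and Mrps28 had edgeR adjusted p of 0.087 and 0.176 with the offsets, and at most 0.128 and 0.183 with 1 library left out. No mitochondrial ribosomal protein passed without day 7 library 1, day 14 library 1 or day 14 library 2, and 1 passed without control library 2, day 7 library 2 or day 7 library 3. The number was 5 without control library 1 and 4 without control library 3. Ndufa2, of complex I, rose by 0.57, and Psma2, of the proteasome core, by 0.43; Ndufa2 lost its call without day 7 library 1 or day 14 library 2, and Psma2 without day 7 library 1 or 2 or day 14 library 1 or 2. With the offsets 2 nuclear respiratory genes and 2 proteasome subunits passed. No nuclear respiratory gene passed without day 7 library 1, and 1, 3, 1 and 2 passed without day 7 library 2 and day 14 library 1, 2 and 3 in that order. No proteasome subunit passed without day 7 library 1, day 7 library 2 or day 14 library 2, and 3, 3, 1 and 2 passed without control library 2, day 7 library 3, day 14 library 1 and day 14 library 3 in that order.

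Of 26 genes of the unfolded protein response and of folding in the endoplasmic reticulum, where secreted proteins mature, 6 rose and 1 fell. Calr, the calcium-binding lectin chaperone calreticulin, gave 344, 353 and 408 CPM at day 7 and 497, 560.0 and 490.2 CPM at day 14 and rose (log2 fold change 0.48, SE 0.0938, edgeR adjusted p = 0.00507). Manf and Creld2, secreted factors induced by folding stress, rose by 0.64 and 0.65, and Ostc, of the oligosaccharyltransferase, by 0.46. The other two rises were Sdf2l1, a partner of folding chaperones, at 0.63, and Sec61b, of the translocon through which proteins enter the compartment, at 0.49. Both lost their calls without day 7 library 1 or 2 or day 14 library 1 or 2 (highest edgeR adjusted p 0.0911 and 0.116) and with the offsets (0.0592 and 0.0955). Hspa5 (BiP), the main chaperone of the compartment, gave 372, 388 and 435 CPM at day 7 and 485, 542 and 359 CPM at day 14, with overlapping groups, and did not pass. Herpud1, which aids disposal of misfolded proteins, gave 742, 773 and 817 CPM at day 7 and 625, 593 and 440.2 CPM at day 14 and was the fall, with its call lost without day 7 library 2 or day 14 library 3 (highest edgeR adjusted p 0.0604). Ostc lost its call without day 7 library 2, when 3 of the list rose. Of 20 heat shock genes 4 rose: Hspa8, the constitutive cytosolic Hsp70, gave 522, 550.4 and 572 CPM at day 7 and 748, 834 and 764 CPM at day 14 (log2 fold change 0.51, SE 0.0902, edgeR adjusted p = 0.00231), and Dnaja1, Hspe1 and Stip1, its partners or other chaperones, rose by 0.38, 0.46 and 0.42, Hspe1 and Stip1 not with the offsets (edgeR adjusted p = 0.0972 and 0.0789). Dnaja1 lost its call when any 1 irradiated library was left out, Stip1 without day 7 library 1 or 2 or day 14 library 1 or 2, and Hspe1 without day 7 library 1 or day 14 library 2 (highest edgeR adjusted p 0.188, 0.0964 and 0.0696). The number that rose was 2 without day 14 library 1 or day 7 library 2 and 1 without day 14 library 2 or day 7 library 1. Of 16 immediate early genes 1 rose, Jund, at 0.63, without a call when any 1 irradiated library was left out (highest edgeR adjusted p 0.136) or with the offsets (0.0682). Over all genes tested, 3.72% rose.

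Of 21 genes of sterol synthesis 8 fell and none rose. The median was −0.56, and −0.316 without day 7 library 1. Cells make cholesterol from acetyl-CoA through mevalonate and squalene, under the control of SREBP2. Lss, lanosterol synthase, gave 73.9, 61.2 and 48.7 CPM at day 7 and 38.1, 37.5 and 31.2 CPM at day 14 against 28.8, 32.1 and 40.6 CPM in controls and fell (log2 fold change −0.78, SE 0.151, edgeR adjusted p = 0.00636). Cyp51, the lanosterol demethylase, gave 40.4, 30.1 and 24.6 CPM at day 7 and 16.9, 16.9 and 17.6 CPM at day 14 and fell (log2 fold change −0.89, SE 0.157, edgeR adjusted p = 0.00239), and Fdft1, squalene synthase, fell by 0.58. Idi1, the isopentenyl diphosphate isomerase, fell by 1.30, but not without day 7 library 1 or day 14 library 3 (highest edgeR adjusted p 0.0923). Sqle, squalene epoxidase, fell by 0.64, but not without day 7 library 1 or 2 or any 1 day 14 library (highest edgeR adjusted p 0.193). The list median above the control mean was 0.93, 0.62 and 0.24 at day 7 and 0.02, 0.14 and 0.07 at day 14. Without any 1 day 14 library or day 7 library 2, 4 genes fell, and without day 7 library 1, 3 did.

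Of 15 fatty acid synthesis genes 1 rose and 2 fell, against 3.72% and 2.87% of all genes tested. Acly, which supplies cytosolic acetyl-CoA, fell by 0.54, and Fasn, the fatty acid synthase, fell by 0.39, though not with the length offsets (edgeR adjusted p = 0.112) nor without control library 2, day 7 library 1 or 2, or day 14 library 1 or 2 (highest 0.215). Scd1, the stearoyl-CoA desaturase, gave 129.5, 165 and 178 CPM at day 7 and 235, 245 and 339 CPM at day 14 and rose (log2 fold change 0.79, SE 0.14, edgeR adjusted p = 0.00472). Lpl, the lipase that takes fatty acids from blood lipoproteins, gave 21.6, 19.8 and 21.2 CPM at day 7 and 38.1, 45.3 and 46 CPM at day 14, against 29.3, 29.5 and 26.7 CPM in controls, and rose 2.07-fold (log2 fold change 1.05, SE 0.116, edgeR adjusted p = 3.14e-05). Lpl also belongs to a list of adipocyte markers. Of its 10 genes 5 could be tested, Adipoq, Lep, Plin1, Retn and Ucp1 being under the filter, and Lpl alone rose, with a list median of 1.05, or 0.236 without day 14 library 3. The summed adipocyte markers lay at 47.7 to 58.3 CPM in controls, 38.3 to 51.4 at day 7 and 59.4 to 129 at day 14. Cidec, a lipid droplet protein, gave 0.76, 0.0549 and 0.215 CPM at day 7 and 0, 0.797 and 6.83 CPM at day 14 and did not pass (edgeR adjusted p = 0.331). Lpl kept its call whichever library was left out, and the part of adipocytes in the Lpl and Scd1 values was not tested. Of 24 genes of the Atf4 and amino acid response 5 fell and none rose. Shmt2, of mitochondrial one-carbon metabolism, and Slc7a5, a transporter of large amino acids, fell by 0.58 and 0.47. Psat1, of serine synthesis, and Pck2, the mitochondrial phosphoenolpyruvate carboxykinase, fell by 0.51 and 0.58, Pck2 not with the offsets (edgeR adjusted p = 0.118), and the fifth was Sesn2, given above. Trib3, a target of Atf4, gave 30.9, 40.2 and 54.2 CPM at day 7 and 16.8, 15.1 and 6.07 CPM at day 14 and did not pass (edgeR adjusted p = 0.0888). With 1 library left out, the highest edgeR adjusted p was 0.0587 for Shmt2, 0.108 for Slc7a5, 0.131 for Psat1 and 0.0836 for Pck2. The number that fell was 1 without day 7 library 2 or 3 or day 14 library 3, and 3 without day 14 library 1 or 2. Of 22 antioxidant genes 2 rose and 1 fell. Gpx4, the lipid peroxidase, and Txn1, thioredoxin, rose by 0.40 and 0.42, neither with the offsets (edgeR adjusted p = 0.109 and 0.148) nor without day 7 library 1 or 2 or day 14 library 3, Gpx4 nor without day 14 library 1, Txn1 nor without day 7 library 3 or day 14 library 2 (highest 0.0858 and 0.0897). Cat, catalase, gave 330.5, 344 and 319 CPM at day 7 and 222, 179.5 and 229 CPM at day 14 and fell (log2 fold change −0.65, SE 0.0955, edgeR adjusted p = 4.63e-04).

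Of 19 acinar genes 3 rose and none fell, against 3.72% and 2.87% of all genes tested. The median was 0.18, which was 0.099 without day 14 library 2, 0.292 without day 14 library 1 and 0.283 without day 7 library 3. Dcpp1, demilune cell and parotid protein, secreted by demilunes, gave 23222, 23305 and 23758 CPM at day 7 and 35728, 36122 and 30879.6 CPM at day 14, against 46494, 39961 and 32579.7 CPM in controls, and rose (log2 fold change 0.55, SE 0.11, edgeR adjusted p = 0.00636). Dcpp2 rose by 0.43, and Spdef, the transcription factor of mucous cells, by 0.46. Dcpp1 to Dcpp3 are near-identical copies, so their counts may be split between them. Dcpp2 lost its call without control library 2 or any 1 irradiated library and with the offsets (edgeR adjusted p = 0.145), and Spdef without day 7 library 1 or 2 or day 14 library 1 or 2 (highest 0.116). The number of acinar genes that rose was 1 without any of those 4 libraries. Muc19 gave 30293, 33312 and 35263 CPM at day 7 and 36583, 34604 and 35921 CPM at day 14 and did not pass (edgeR adjusted p = 0.506).

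Fluid secretion in acini is started by acetylcholine at muscarinic receptors, which raises calcium and opens a chloride channel. Of 22 genes of that path 3 fell and none rose, against 2.87% and 3.72% of all genes tested. Ano1, the calcium-gated chloride channel, gave 163, 180.0 and 175 CPM at day 7 and 113, 142 and 113 CPM at day 14 and fell (log2 fold change −0.49, SE 0.102, edgeR adjusted p = 0.00781), but not without day 14 library 1 (highest 0.0577). Itpr3, the calcium release channel, gave 106, 112 and 86 CPM at day 7 and 67.3, 67.9 and 66.3 CPM at day 14 and fell (log2 fold change −0.60, SE 0.102, edgeR adjusted p = 0.00191). Chrm3, the M3 receptor, gave 63.5, 66.3 and 61.7 CPM at day 7 and 61.1, 62 and 67.3 CPM at day 14 and did not pass (edgeR adjusted p = 0.974), nor did Aqp5, the water channel of acini, at 1080.4, 1184 and 1084 CPM at day 7 and 1224, 1254 and 1113 CPM at day 14.

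Of 19 duct genes 1 rose, the glutathione transferase Gstt1 at 0.67, which did not pass with the offsets (edgeR adjusted p = 0.0598) nor without day 7 library 2 or 3 or day 14 library 1 or 2 (highest 0.0767). The 2 that fell were Klf5, an epithelial transcription factor, at −0.48 and Scnn1a, a sodium channel subunit, at −0.43. Klf5 and Scnn1a lost their calls without day 7 library 2 or day 14 library 1, Klf5 also without day 7 library 3, and Scnn1a also without day 7 library 1 or day 14 library 2 or 3 (highest edgeR adjusted p 0.0982 and 0.249). Of 11 basal and myoepithelial genes 1 fell, Itgb4, at −0.76. Over all genes tested, 2.87% fell and 3.72% rose, so the duct and basal calls describe single genes. None of 14 progenitor genes passed the edgeR test: Sox2, a progenitor transcription factor, gave 109.9, 129.8 and 147 CPM at day 7 and 114, 116 and 120.0 CPM at day 14, and Kit, a stem cell factor receptor, gave 42.9, 41.2 and 34.6 CPM at day 7 and 34.2, 28 and 37.7 CPM at day 14. Krt5 and Krt14, keratins of basal cells, had log2 fold changes of −0.08 and 0.15. Duoxa2, a maturation factor for the dual oxidase of ducts, gave 9.45, 14.2 and 8.11 CPM at day 7 and 2.16, 2.6 and 4.61 CPM at day 14 and fell (log2 fold change −1.76, SE 0.291, edgeR adjusted p = 0.00181). Its exons overlap Duoxa1 on the other strand.

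Of 25 laminin, nidogen and integrin genes, which hold cells to the basement membrane, 6 fell and none rose. The median was −0.18, which was −0.294 without day 7 library 3 and −0.299 without day 14 library 2. Itgb4, the hemidesmosome integrin, gave 112, 125 and 108 CPM at day 7 and 62.5, 65.9 and 75.2 CPM at day 14 and fell (log2 fold change −0.76, SE 0.0967, edgeR adjusted p = 1.35e-04). Lama3 and Lama5, epithelial laminin chains, fell by 0.66 and 0.53. Nid2, which links laminin to collagen IV, fell by 0.83, but not without day 7 library 2 or day 14 library 2 (highest edgeR adjusted p 0.0648), when 3 of the list passed. Of 20 collagens 1 rose, Col5a3, a fibrillar collagen chain, with 5.76, 8.13 and 9.13 CPM at day 7 and 15.9, 12.5 and 14.6 CPM at day 14 (log2 fold change 0.90, SE 0.183, edgeR adjusted p = 0.00679). Col5a3 ran against its list, whose median was −0.19 and in which 2 of 20 genes had a positive log2 fold change. Over all genes tested, 3.72% rose and 2.87% fell. Col1a1, the main fibrillar chain, gave 77.2, 69.8 and 57.8 CPM at day 7 and 59.7, 61.9 and 49 CPM at day 14 and did not pass. Of 25 matrix genes 1 fell and 1 rose: Tnc, the wound-associated glycoprotein tenascin C, gave 64.5, 51.4 and 51 CPM at day 7 and 32.1, 35.5 and 26.2 CPM at day 14 and fell (log2 fold change −0.83, SE 0.14, edgeR adjusted p = 0.00175), and Mmp3, the protease stromelysin, rose by 1.01, but not without any 1 day 7 library or day 14 library 2 or 3, nor with the offsets (edgeR adjusted p = 0.0674).

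Vessel, nerve, Notch and stromal lists gave 1 or 2 calls each, while 3.72% of all genes tested rose and 2.87% fell. These calls describe single genes and not the lists. Of 18 endothelial genes 1 fell, Robo4, a guidance receptor of vessels, at −0.90, and of 10 pericyte genes 1 fell, Notch3, at −0.81. Both calls were lost without day 7 library 1 or 2 or day 14 library 2, and that of Robo4 also without day 7 library 3 or day 14 library 1 (highest edgeR adjusted p 0.184 for Robo4 and 0.0835 for Notch3). Notch2, a receptor of the same pathway, gave 41.2, 39.5 and 33.2 CPM at day 7 and 25.1, 24.1 and 24.6 CPM at day 14 and fell (log2 fold change −0.62, SE 0.117, edgeR adjusted p = 0.00419), so 2 of 18 Notch genes fell. Of 16 nerve-supporting genes 1 fell, Vipr1, a receptor for vasoactive intestinal peptide, at −0.38, without a call when any irradiated library but day 7 library 3 was left out (highest edgeR adjusted p 0.0848). Nrtn, neurturin, which supports parasympathetic neurons, gave 20.6, 21.5 and 20.4 CPM at day 7 and 25.7, 24.6 and 23.5 CPM at day 14 and did not pass. Its day 14 libraries lay above its day 7 libraries, as did those of 15.9% of all genes tested. Of 15 fibroblast genes 1 rose, Ly6a (Sca-1), with 19.6, 18 and 17.1 CPM at day 7 and 36.3, 36.1 and 31.9 CPM at day 14 (log2 fold change 0.93, SE 0.13, edgeR adjusted p = 3.00e-04). Of 13 Schwann cell genes 1 rose, Cnp, a myelin enzyme, at 0.48, without a call when control library 2 or any 1 irradiated library was left out (highest edgeR adjusted p 0.117). Cnp ran against its list, whose median was −0.16 and in which 2 of 13 genes had a positive log2 fold change.

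Of 16 genes of a list of senescence-associated secreted factors and markers within cells, 1 rose, Mmp3, and 1 fell, Lmnb1. Lmnb1 encodes a lamin of the nucleus, which is not secreted and whose loss is used as a marker of senescent cells. The part of senescence in its fall was not tested. Over all genes tested, 3.72% rose and 2.87% fell. Lmnb1 gave 12.7, 16 and 15.1 CPM at day 7 and 8.36, 8.82 and 9.27 CPM at day 14 and fell (log2 fold change −0.73, SE 0.188, edgeR adjusted p = 0.0265), but not without day 7 library 2 or 3 or any 1 day 14 library (highest 0.124). Of 18 enzymes of mucin-type glycosylation 1 fell, Galnt7, which adds the first sugars to mucins, with 586, 552 and 540.4 CPM at day 7 and 352, 479 and 385 CPM at day 14 (log2 fold change −0.47, SE 0.12, edgeR adjusted p = 0.0282), its call lost without any 1 day 7 library or day 14 library 1 or 3 (highest 0.142). The lists for lymphatic endothelium, skeletal muscle, neurons, erythrocytes, the granular duct of the submandibular gland, neutrophils and mast cells gave no call among 6, 6, 4, 5, 16, 1 and 1 tested genes in that order.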

How the data were processed

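RNA-seq gene counts of 9 mouse sublingual gland libraries were used, 3 per group (control, day 7, day 14). The deposited values are whole-number counts per Ensembl gene; the tools STAR, featureCounts and DESeq2 and the build mm10 are named per the submitters' processing notes. Their versions, settings and annotation, and the counted strand, were not given in the sources used here. Of 54532 identifiers, 54495 matched a GENCODE M21 symbol on GRCm38; promoter sequences came from RefSeq (GRCm38.p6).

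The 9 libraries were fitted together with edgeR 4.0.16 in R 4.3.3 (filterByExpr, TMM, robust quasi-likelihood F test, 2-sided, Benjamini-Hochberg adjusted p below 0.05), giving 6 residual degrees of freedom, and day 14 was contrasted with day 7. Controls added to the estimate of the spread. SE was the absolute log2 fold change divided by the square root of F. The biological coefficient of variation was 16.1%. On simulated data, 48.5% of genes changed 1.5-fold, 53.0% changed 2-fold and 86.7% changed 4-fold were recovered among 15055 genes, with 9 false calls (7.03% of calls).

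The genes named were the 12 largest rises and falls among called genes with mean CPM of at least 5, non-overlapping groups and an established symbol, up to 4 members per list with the smallest p, the largest change of a list in each direction, and fixed key genes; 15 more (Npas2, Clock, Irf7, Cry1, Kif11, Wee1, Hlf, Sqle, Ctss, Cd68, Herpud1, Psat1, Leo1, Sdf2l1, Sec61b), with Igha and Prol1, were added once values had been seen. The comparison and the lists were chosen with earlier results of these data known. Alternatives covered normalization, filters, DESeq2 1.42.0, limma 3.58.1, length and GC offsets, a replicate block and omission of each library. No 2 libraries agreed within sampling noise. Some genes are not reported here.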

Additional observations from a re-analysis of the deposited data

How the results depend on the processing

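In place of 1011 genes (571 higher, 440 lower), limma-voom with sample weights called 1874 (1001 higher, 873 lower), an adjusted p below 0.01 left 264 (146 and 118), and an adjusted p below 0.05 with a change of at least 2-fold left 212 (102 and 110). With only the 6 irradiated libraries 1472 genes passed, 723 of them lower. Leaving out 1 library gave 330 to 1415 genes in all, 208 to 739 higher and 119 to 676 lower. The lowest total came without day 7 library 2 and the highest without control library 3. Control library 3 differed most from its group. Its counts gave a chi-square per degree of freedom of 123.75 and 86.92 against control libraries 1 and 2, which gave 14.59 with each other. Its spread enters the main edgeR p-values, also those of genes that did not pass. DESeq2 called 1418, and dropping the filter on low counts 1394. None of the called genes shared with the main test changed sign under any of these. Same-numbered libraries of day 7 and day 14 deviated from their group means with correlations of −0.039, −0.106 and −0.085. Such values, from 3 libraries a group, do not settle whether the numbers pair the libraries. With the replicate block 746 genes passed (432 and 314), with 71.1% of the original calls kept, and with the block and the length and GC offsets 777. Of 274 genes recomputed, 136 were called, 61 of them under every alternative, and no called gene reversed. Among the lists, dropping the filter gave 16 interferon genes, 10 nuclear respiratory, 8 Atf4, 7 S phase and 6 mitochondrial ribosomal genes, and limma-voom 14 interferon, 9 S phase, 6 mitochondrial ribosomal and 5 fluid secretion genes; the 6 irradiated libraries alone gave 8 Atf4 and 7 S phase genes. With the replicate block 5 sterol genes, 4 falls of the clock loop, 3 proteasome, 3 Atf4, 2 S phase and 2 repair genes passed. Totals of 15962399 to 19441239 counts mean that genes below about 0.2 CPM rest on 3 counts or fewer.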

Other observations

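Several transcripts of single cell types showed wide spread between libraries of 1 group, and their fold changes did not pass the edgeR test. Jchain, the joining chain of secreted immunoglobulins, gave 37.4, 1.59 and 13.6 CPM at day 7 and 140.3, 152 and 5.2 CPM at day 14, and Igha, the heavy chain of IgA, gave 222, 11.5 and 65.9 CPM at day 7 and 658, 761 and 29.4 CPM at day 14: in both, day 14 library 3 lay below day 7 library 1. Cfd, the adipocyte protease adipsin, gave 2.01, 0 and 1.13 CPM at day 7 and 0.0584, 7.49 and 29.4 CPM at day 14, with the highest value in day 14 library 3. Vip, the neuropeptide of parasympathetic nerves, gave 2.12, 4.23 and 0.376 CPM at day 7 and 0.0584, 0 and 0.271 CPM at day 14. Its highest day 14 value lay below the lowest of day 7, as in 13.5% of all genes tested. In day 14 libraries 1 and 2 it lay under 3 counts, which were 0.175 and 0.159 CPM there. Its log2 fold change of −4.26 had an edgeR adjusted p of 0.129 in the main fit, and it passed as lower with DESeq2 and without control library 3.

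Some secreted proteins also varied widely within groups. Mucl2, a mucin-like protein, gave 1223, 1693 and 39.4 CPM at day 7 and 200.4, 14195 and 1379.9 CPM at day 14, and Prol1, a proline-rich secreted protein, gave 135, 234 and 2.74 CPM at day 7 and 5.79, 1724 and 177 CPM at day 14. Day 14 library 2 was the highest of the 6 irradiated libraries for both. In controls, Mucl2 gave 4425, 7841 and 76404 CPM, with control library 3 highest.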
